A study of Mus musculus with 4 samples.

Results

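The serum amyloid A genes are a small family of secreted lipid-binding proteins, and the mouse genes Saa1, Saa2, Saa3 and Saa4 were taken by symbol, mapped to Entrez gene identifiers 20208, 20209, 20210 and 20211. All 4 were listed in every library, among 18872 gene identifiers in the files. They were selected on their expected counts and FPKM in the knockout libraries against the wild-type libraries, in which Saa1 and Saa2 lie on one side and Saa3 on the other, so that difference is described here and not tested. RNA was sequenced from colon epithelial cells isolated from mice on 2% dextran sulfate sodium (DSS) for 3 days, an agent that damages the colon lining and sets off colitis. The knockout group (KO) carried the genotype labelled EZH2-IEC-/-, a loss of the histone methyltransferase Ezh2 in intestinal epithelial cells, and the wild-type group (WT) received the same DSS. Each group had 2 libraries, and mice without DSS were not analysed here. The Cre driver, the deleted exons, the strain, the age and the number of mice per library are not given in the sources used here.

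Serum amyloid A proteins are apolipoproteins of high-density lipoprotein and bind retinol. In mice, Saa1 and Saa2 are acute phase genes of the liver that the gut epithelium also makes on contact with bacteria. Saa3 is made mainly outside the liver, by macrophages, adipocytes and inflamed epithelium, while Saa4 is known as a constitutive member. Cytokines such as TNF, interleukin-1, interleukin-6 and interleukin-22 induce the acute phase members through NF-κB, C/EBP and STAT3, and retinoic acid receptors have been tied to Saa1 and Saa2 in the mouse gut.

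The deposited expected counts summed to 5399949 and 5446998 in the KO libraries and to 5037367 and 5236519 in the WT libraries. Ezh2 itself was counted at 86 and 83 in KO and at 105 and 102 in WT (log2 fold change -0.27 ± 0.17 SE, adjusted p = 0.217 by edgeR). These counts cover the whole gene and leave unknown whether an exon was lost. Of 13608 genes tested, 43.7% passed the threshold of an adjusted p under 0.05 (edgeR, quasi-likelihood, Benjamini-Hochberg over all genes), 23.0% higher and 20.8% lower in KO. Of the called genes 52.5% were higher in KO, or 42.4% when libraries were scaled by their totals, which moved the median log2 fold change of all genes from -0.002 to -0.103. All 12 colon epithelial markers were listed, with 7 of them higher and 3 lower in KO. Their summed FPKM (read count scaled to transcript length and library total) was 13306 and 13854 in KO and 12508 and 12897 in WT. This was the highest sum of the cell type lists. All macrophage, adipocyte, and fibroblast and smooth muscle markers were listed too, so being listed does not tell the cell type. The fibroblast and smooth muscle markers summed to 1052 and 1349 FPKM in KO and 2340 and 2520 FPKM in WT. Separate mice per library are not stated in the labels, and p-values therefore reflect the spread among these 4 libraries, possibly a technical one.

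The 4 genes sit in one cluster on mouse chromosome 7, in the order Saal1, Saa3, Saa4, Saa1, Saa2 and Hps5 by the RefSeq annotation of GRCm38.p6 (leaving out a noncoding gene and a pseudogene), with Saa1 and Saa2 on opposite strands and transcribed away from each other. Promoters are shown because the neighbouring pair Saa1 and Saa2 differed from Saa3 in direction. The following are the 250 bases before each RefSeq start site, from GRCm38.p6, printed 5′ to 3′ on the gene's own strand, with matches to the C/EBP-type motif TTGCNNAA on either strand in capitals.
Saa1, chr7:46742981-46743230, minus strand: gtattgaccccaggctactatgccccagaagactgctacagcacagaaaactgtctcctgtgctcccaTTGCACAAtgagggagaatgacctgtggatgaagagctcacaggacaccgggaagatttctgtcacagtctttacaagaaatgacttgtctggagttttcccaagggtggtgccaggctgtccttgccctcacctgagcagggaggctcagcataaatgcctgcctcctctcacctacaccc
Saa2, chr7:46751583-46751832, plus strand: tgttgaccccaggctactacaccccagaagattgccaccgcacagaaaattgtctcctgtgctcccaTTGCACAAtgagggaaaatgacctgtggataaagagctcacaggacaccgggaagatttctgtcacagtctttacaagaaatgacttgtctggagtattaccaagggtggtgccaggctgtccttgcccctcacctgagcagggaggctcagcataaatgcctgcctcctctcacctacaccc
Saa3, chr7:46715677-46715926, minus strand: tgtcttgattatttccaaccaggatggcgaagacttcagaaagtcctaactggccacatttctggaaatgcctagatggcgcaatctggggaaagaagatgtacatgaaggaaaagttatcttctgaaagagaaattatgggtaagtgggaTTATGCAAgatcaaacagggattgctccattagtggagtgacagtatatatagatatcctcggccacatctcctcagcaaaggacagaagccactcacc
Saa4, chr7:46732604-46732853, minus strand: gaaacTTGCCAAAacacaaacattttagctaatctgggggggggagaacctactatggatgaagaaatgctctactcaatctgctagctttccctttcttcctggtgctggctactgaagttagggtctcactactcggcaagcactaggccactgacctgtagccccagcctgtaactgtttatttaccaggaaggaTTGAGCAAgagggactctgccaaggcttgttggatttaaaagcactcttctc

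The Saa1 and Saa2 promoters were near copies. Their windows agreed at 238 of 251 aligned positions, an identity of 94.8%, with 11 mismatches and 2 gap positions. Saa3 aligned to Saa1 at 48.2% identity and Saa4 to Saa1 at 46.3%. On either strand, the C/EBP-type motif occurred once in Saa1, once in Saa2, once in Saa3 and 2 times in Saa4, and it was found in 9.6% of 32851 RefSeq promoter windows of the same length. The matches began 182 and 183 bases before the start site in Saa1 and Saa2, at the same letters TTGCACAA, and 99 bases before it in Saa3. The retinoic acid receptor half-site AGGTCA was present once in each of Saa1, Saa2 and Saa4, had no match in Saa3, and was found in 14.0% of all windows. Neither the STAT pattern TTCNNNGAA nor TATAAA matched any of the 4 windows (7.0% and 12.4% of all windows). No matches of different motifs overlapped in these windows, and a match is a description of letters, not a binding site.

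The transcripts are also close enough for reads to be shared. The coding sequences of Saa1 and Saa2 are 366 bases each and differ at 18 positions, an identity of 95.1%, while Saa1 and Saa3 are 74.3% identical and Saa1 and Saa4 64.4%. Coding bases 61 to 180 from the GENCODE vM21 transcripts that match the deposited RefSeq accessions show both features, a scatter of differences between Saa1 and Saa2 and a long run that Saa1 shares with Saa3. Capitals mark, for Saa1, bases that differ from Saa2, and for Saa2 and Saa3, bases that differ from Saa1 at the same position.
Saa1: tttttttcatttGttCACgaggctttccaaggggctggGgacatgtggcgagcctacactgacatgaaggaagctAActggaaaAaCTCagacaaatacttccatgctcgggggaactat
Saa2: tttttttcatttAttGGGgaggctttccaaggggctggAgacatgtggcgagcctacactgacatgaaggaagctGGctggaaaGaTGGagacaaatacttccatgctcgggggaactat
Saa3: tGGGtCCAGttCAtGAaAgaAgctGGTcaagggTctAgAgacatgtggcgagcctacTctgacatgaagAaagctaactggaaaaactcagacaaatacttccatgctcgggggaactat
In this stretch Saa1 and Saa2 differed at 11 of 120 bases and Saa3 differed from Saa1 at 21. The longest identical run was 99 bases between the Saa1 and Saa2 transcripts and 58 bases between Saa1 and Saa3. Of the 50-base windows of the Saa1 transcript, 13.2% also occur in Saa2, 1.6% in Saa3 and 0.0% in Saa4. The deposited counts of all 4 genes are fractional, and the read length and the rule that divided shared reads are not given in the sources used here, so the split between Saa1 and Saa2 in particular is uncertain.

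Saa1 was by far the most abundant family member in both groups and was lower in KO. It measured 866 and 1194 FPKM in the KO libraries, against 2164 and 2523 FPKM in the WT libraries. The groups did not overlap, and the higher KO library was below the lower WT library. The means were 1030 ± 232 FPKM in KO and 2343 ± 254 FPKM in WT (SD, n = 2 each). By FPKM, Saa1 ranked 94 and 44 among the genes listed in the KO libraries and 7 and 8 in the WT libraries. The fitted log2 fold change was -1.08 ± 0.14 (SE), and 7.52% of the tested genes had a lower one. In bulk RNA such as this, fewer cells of a type and less RNA per cell cannot be told apart.

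Saa2, the near copy of Saa1, was about an order of magnitude less abundant and was lower in KO by a similar factor. It measured 105 and 98.8 FPKM in KO, against 268 and 162 FPKM in WT. The KO libraries lay close together, at 102 ± 4.72 FPKM, and the WT libraries were spread, at 215 ± 74.7 FPKM (SD, n = 2 each). The log2 fold change was -0.97 ± 0.20, and without WT replicate 1, the library with the most Saa2, it was -0.58. Summed into one feature, Saa1 and Saa2 had 3055 and 4101 counts in KO and 7124 and 8179 counts in WT, a log2 fold change of -1.07 ± 0.13 that does not depend on how reads were split between them.

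Saa3, the form made outside the liver, went the other way and was nearly uncounted in WT. It had 135 and 116 expected counts in KO, against 3.05 and 1.02 in WT. Its level was 49.5 and 42.1 FPKM in KO, against 1.2 and 0.39 FPKM in WT. Every KO library was more than an order of magnitude above every WT library. The ratio of rounded counts per library total, 251 to 4, was 59.4 with an exact Clopper-Pearson 95% interval of 22.9 to 219.8, which covers counting error only and is no test, since Saa3 was chosen on these counts. The fitted log2 fold change was 5.91 ± 0.37, and 99.82% of the tested genes had a lower one. With so few WT counts its size rests on single reads: without WT replicate 1 it was 6.84 and without WT replicate 2 it was 5.32.

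Saa4, the constitutive member, was barely detected in either group. It had 17.4 and 19.9 counts in KO, against 10.9 and 5.99 counts in WT, which is 1.55 and 1.76 FPKM in KO and 1.05 and 0.55 FPKM in WT. The groups did not overlap. Its log2 fold change was 1.13 ± 0.45, or 0.74 without WT replicate 2 and 1.64 without WT replicate 1. All 4 genes had groups that did not overlap, and so did 73.3% of all tested genes (30.7% with KO above WT and 42.6% with KO below WT).

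**Figure D1:**
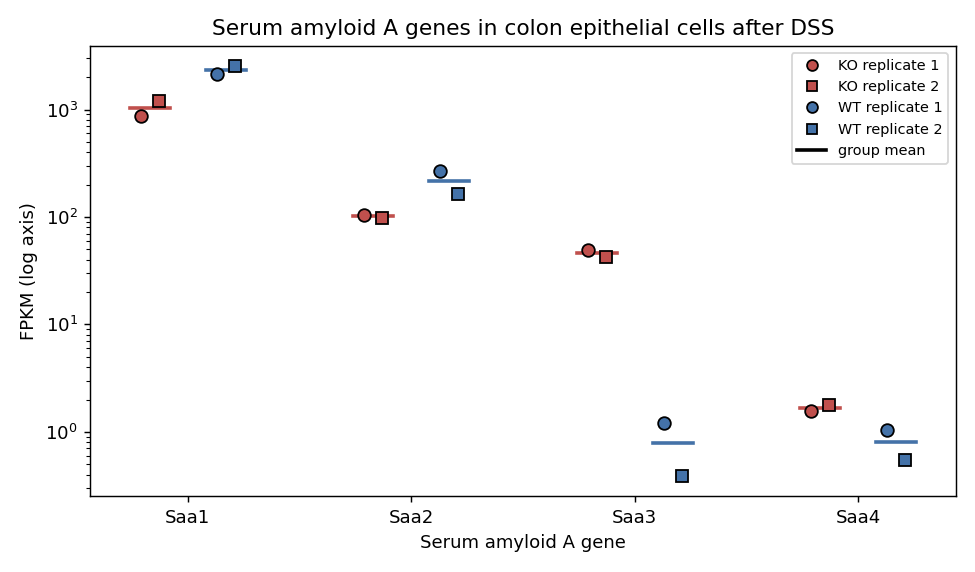
FPKM of each serum amyloid A gene on a log axis, with 1 point per library (circles, replicate 1; squares, replicate 2) and a line at each group mean, KO in red and WT in blue (n = 2 each). Saa1 and Saa2 lie lower in KO, Saa3 lies at 49.5 and 42.1 FPKM in KO against 1.2 and 0.39 FPKM in WT, and Saa4 stays under 2 FPKM in every library.

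Ordered by level, the WT family ran Saa1, then Saa2, with Saa3 and Saa4 together at the bottom: 0.80 ± 0.57 FPKM for Saa3 and 0.80 ± 0.35 FPKM for Saa4, which do not differ beyond their spread. In KO the order was Saa1, Saa2, Saa3 and Saa4, with Saa3 at 45.8 ± 5.23 FPKM well above Saa4 at 1.66 ± 0.15 FPKM, and the spreads of neighbours did not meet. The Saa1 to Saa3 ratio of FPKM was 17.5 and 28.4 in the KO libraries and 1803 and 6470 in the WT libraries. Because Saa1 is so abundant, the summed FPKM of the family was still lower in KO, at 1023 and 1337, against 2434 and 2686 in WT. Saa3 made up 4.84% and 3.15% of that sum in KO and 0.049% and 0.015% in WT.

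The split between Saa1 and Saa2 followed the replicate number rather than the genotype. Saa2 held 10.9% of the counts of the pair in KO replicate 1 and 7.68% in KO replicate 2, against 11.07% in WT replicate 1 and 6.07% in WT replicate 2. Both replicate 1 libraries were high and both replicate 2 libraries low, and the genotypes overlapped. The deposited files do not all list the same transcripts for a gene: 14804 of 18872 identifiers have the same ones in every file, these 4 genes among them. The part of that difference in this split was not tested.

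**Figure D2:**
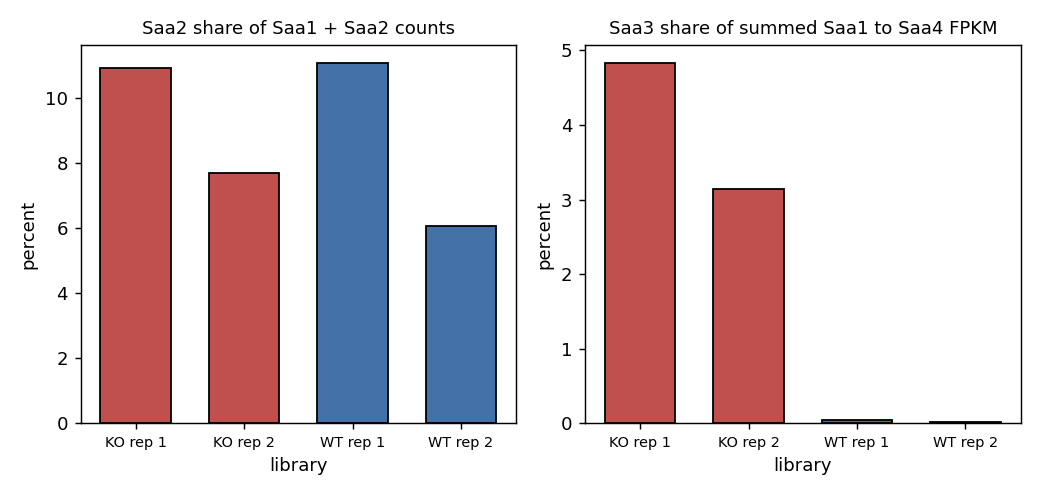
Left, Saa2 as a percent of the Saa1 and Saa2 counts in each library, and right, Saa3 as a percent of the summed FPKM of the 4 genes, KO bars in red and WT bars in blue. The Saa2 share is 10.9% and 11.07% in the replicate 1 libraries and 7.68% and 6.07% in the replicate 2 libraries, while the Saa3 share is 4.84% and 3.15% in KO and under 0.05% in WT.

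The other acute phase proteins with enough counts were all higher in KO. Of 23 genes on the list 11 could be tested, and all 11 rose, against 23.0% of all tested genes. Their median log2 fold change was 2.37, against -0.002 over all tested genes. Hp, with 1 and 4 counts in WT, and Lcn2, with 10 and 6, passed the count filter only through their KO counts. They could hardly be called lower. Lrg1, a secreted leucine-rich glycoprotein, measured 357 and 282 FPKM in KO, against 7.44 and 6.46 FPKM in WT (log2 fold change 5.62 ± 0.16, adjusted p = 5.13e-08). Complement C3 measured 59.2 and 61.5 FPKM in KO and 18.1 and 14.5 FPKM in WT. The metal reductase gene Steap4 rose by 3.10 on the log2 scale and the metallothionein gene Mt1 by 1.60. The list of epithelial genes that respond to interleukin-22 and STAT3 was similar. Of 16 measured, 15 rose and 1 fell, beside 23.0% and 20.8% of all tested genes. Of those that rose, Lcn2, Reg3b, Reg3g, S100a8 and S100a9 passed the count filter only through their KO counts. Nos2, the inducible nitric oxide synthase, rose by 6.51 and Duoxa2, which matures an epithelial hydrogen peroxide source, by 3.47. Dmbt1, a secreted scavenger protein, measured 1720 and 1650 FPKM in KO and 1039 and 981 FPKM in WT. Pigr, the receptor that carries IgA across the epithelium, was the member that fell, at 880 and 900.1 FPKM in KO and 1346 and 1280.1 FPKM in WT. Lrg1, Steap4 and Lcn2 belong to both lists, which therefore overlap.

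Of 10 cytokines that induce serum amyloid A, 4 had enough counts to be tested, and 3 of these rose, beside 23.0% of all tested genes. Tnf, with 6 and 11 counts in WT, passed the count filter only through its KO counts and could hardly be called lower. Tnf measured 13.1 and 13.6 FPKM in KO, against 0.75 and 1.31 FPKM in WT (log2 fold change 3.79 ± 0.28, adjusted p = 1.29e-05), while Lif and Il1b rose by 1.97 each on the log2 scale. Il22, Il6, Il17a and Il17f had at most 0.32 FPKM in any library and were not tested. The list of receptors and kinases for these cytokines has 15 genes. It also holds the inhibitor Socs3, which is on the interleukin-22 and STAT3 list too. Of the 15, 5 rose, Socs3 among them, and 2 fell (median log2 fold change 0.04), beside 23.0% and 20.8% of all tested genes. The number that fell was 1 without WT replicate 1 and 5 with the replicate block. Socs3, the feedback inhibitor that STAT3 induces, measured 46.4 and 43.7 FPKM in KO, against 5.33 and 4.78 FPKM in WT. The TNF receptors Tnfrsf1b and Tnfrsf1a rose by 2.31 and 0.97, the oncostatin M receptor Osmr by 2.10 and the interleukin-17 receptor subunit Il17rc by 0.49. The 2 that fell were Il22ra1, a chain of the interleukin-22 receptor, and Il1r1, an interleukin-1 receptor, with log2 fold changes of -0.38 and -0.86. Il22ra1 measured 20.9 and 22.3 FPKM in KO, against 31.5 and 28.8 FPKM in WT, while Il10rb, the other chain of that receptor, was not called (log2 fold change -0.105 ± 0.095, adjusted p = 0.406).

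Of 22 transcription factors and inhibitors tied to serum amyloid A genes, 5 rose and 6 fell, near the shares of 23.0% and 20.8% over all tested genes, with a median log2 fold change of -0.08. The number that fell was 2 without WT replicate 2. Among those that rose were Nfkbiz, Nfkbia, Cebpd and Cebpb. Nfkbiz, a nuclear NF-κB cofactor, and Nfkbia, the NF-κB inhibitor that NF-κB itself induces, rose by 1.44 and 1.42. Cebpd, the C/EBP factor of the acute phase, measured 42.7 and 45.8 FPKM in KO and 21.7 and 21.7 FPKM in WT. Stat3 itself had 40.6 and 41.4 FPKM in KO and 39.9 and 40.0 FPKM in WT (log2 fold change 0.14 ± 0.09, adjusted p = 0.21). Those that fell were Hnf4a, Cebpa, Relb, Sp1 and the retinoid receptors Rara and Rxra. Hnf4a, a hepatocyte and enterocyte factor, measured 156 and 165 FPKM in KO and 251 and 254 FPKM in WT. Rara measured 6.82 and 8.11 FPKM in KO, against 11.5 and 13.7 FPKM in WT.

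Genes of retinol handling moved in both directions. Of 17 measured, 5 rose and 8 fell, beside 23.0% and 20.8% of all tested genes, with a median log2 fold change of 0.07. Of those that rose, Rbp7 and Aldh1a2 passed the count filter only through their KO counts and could hardly be called lower. Of those that fell, Lrat and Cyp26b1 passed it only through their WT counts and could hardly be called higher. The number that rose was 2 with DESeq2 and with a mean FPKM of at least 5. With no filter and with limma on log2(FPKM + 0.01) it was 3, and it was also lower with each library left out in turn. The number that fell was 5 with a mean FPKM of at least 5. Rbp2, the cellular retinol-binding protein of enterocytes, measured 12.3 and 18.1 FPKM in KO, against 63.2 and 56.9 FPKM in WT (log2 fold change -1.88 ± 0.19, adjusted p = 8.68e-05). Aldh1a1, which makes retinoic acid, measured 7.93 and 8.66 FPKM in KO and 19.2 and 17.3 FPKM in WT. Ttr, a carrier of thyroid hormone and of the retinol-binding protein of plasma, fell by 1.74 on the log2 scale. Isx, an intestinal repressor of carotenoid uptake that retinoic acid induces, rose the most, at 16.0 and 16.1 FPKM in KO and 1.48 and 2.56 FPKM in WT. Lrp1, described in mice as a receptor for retinol-loaded serum amyloid A, had a log2 fold change of -0.58 ± 0.08 (adjusted p = 0.000557).

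Of 7 measured receptors that bind serum amyloid A, 3 rose and 0 fell, beside 23.0% and 20.8% of all tested genes. The number that rose was 1 with a mean FPKM of at least 5. Among these receptors, Fpr2 passed the count filter only through its KO counts and could hardly be called lower. Tlr2, a receptor for bacterial lipoproteins, measured 14.2 and 13.9 FPKM in KO, against 3.37 and 3.17 FPKM in WT. Fpr2, a formyl peptide receptor of myeloid cells, stayed under 2 FPKM, with a log2 fold change of 2.98 ± 0.64 (adjusted p = 0.00494, or 0.0613 without KO replicate 2). Tlr4 passed narrowly, with a log2 fold change of 0.71 ± 0.23 (adjusted p = 0.0323), and 7 of 13 alternatives ended that call, with adjusted p-values of 0.0532 to 0.165. Of 8 measured genes of apolipoproteins and high-density lipoprotein, 3 rose and 1 fell, beside the same 23.0% and 20.8%. Apoe fell to 142 and 163 FPKM in KO, against 282 and 278 FPKM in WT, while Apoc2 measured 59.7 and 82.8 FPKM in KO and 9.31 and 8.9 FPKM in WT. Apoa1, the main protein of high-density lipoprotein, was at most 1.32 FPKM in any library and was not tested.

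**Figure D3:**
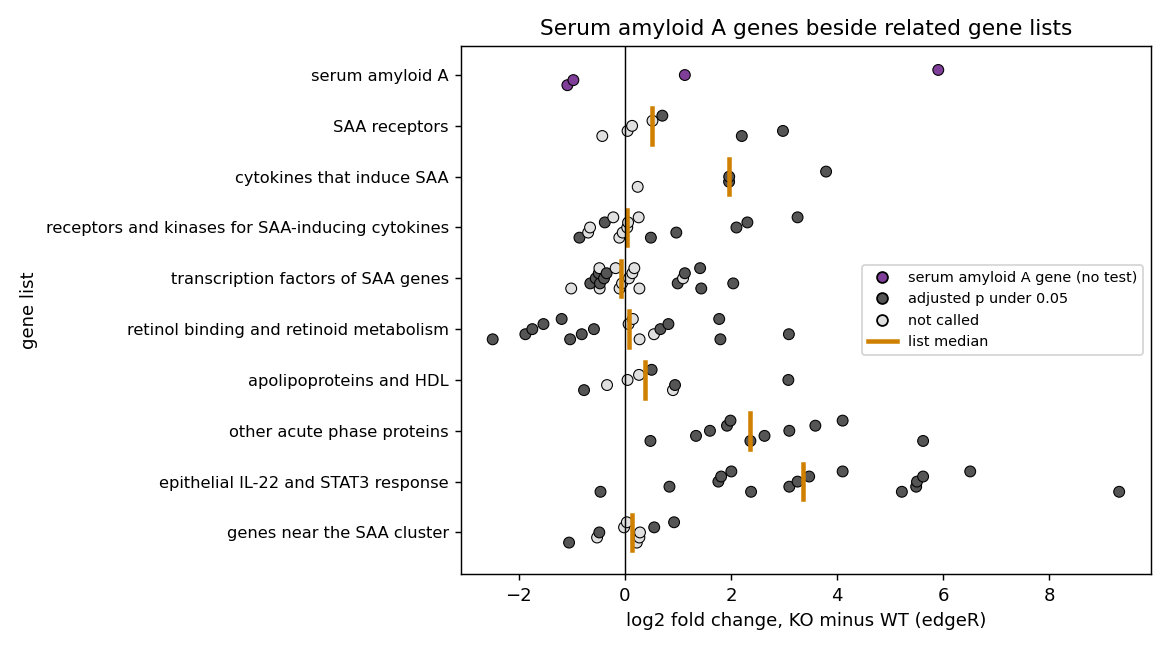
Log2 fold changes, KO minus WT, of the serum amyloid A genes and of the tested members of 9 related gene lists (1 point per gene; dark, adjusted p under 0.05; pale, not called; bar, list median). The acute phase list has its median at 2.37 with 11 of 11 genes higher (Hp and Lcn2 were tested through their KO counts alone). Saa1 and Saa2 lie at -1.08 and -0.97 and Saa3 at 5.91.

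Of 10 measured genes that flank the cluster, 2 rose and 2 fell, which is near the shares of 23.0% and 20.8% over all tested genes. The adjacent genes Saal1 and Hps5 had log2 fold changes of 0.27 ± 0.19 and 0.04 ± 0.10 and were not called (adjusted p = 0.283 and 0.798). Saal1 measured 2.84 and 2.74 FPKM in KO and 2.43 and 2.53 FPKM in WT. Beyond them, Ldha, the glycolytic lactate dehydrogenase, measured 1097 and 1064 FPKM in KO and 795 and 786 FPKM in WT, and Zdhhc13, a palmitoyl transferase, rose by 0.93. Uevld and Spty2d1 fell by 1.05 and 0.48, and the call of Spty2d1 was lost with DESeq2 (adjusted p = 0.0612) and without WT replicate 2 (adjusted p = 0.0553). Gtf2h1, Tsg101 and Tmem86a were not called, Ldhc was listed above 0 in the replicate 1 files alone, and Ptpn5 had too few counts.

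**Figure D4:**
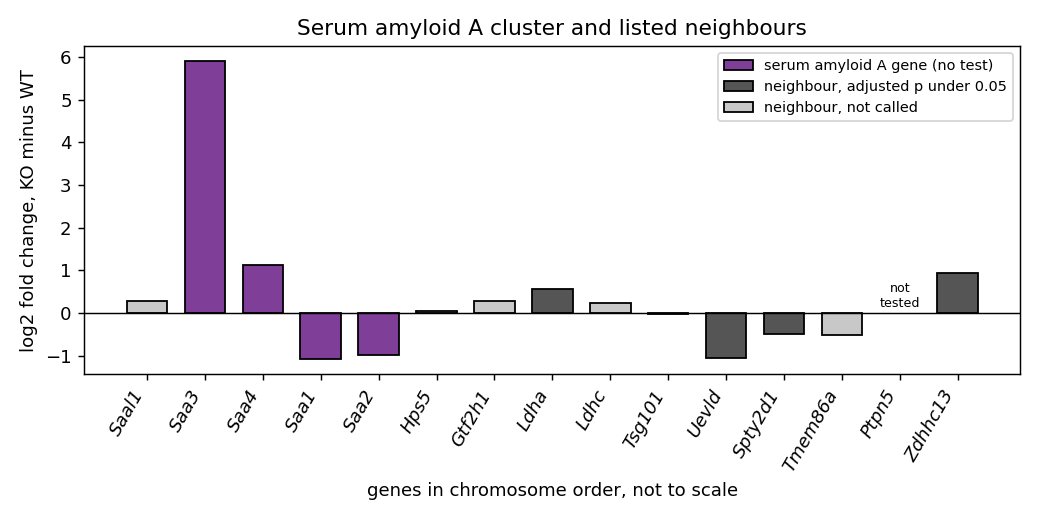
Log2 fold change, KO minus WT, of the serum amyloid A genes (purple, not tested) and of the listed neighbours in chromosome order by GRCm38.p6, not drawn to scale (dark, adjusted p under 0.05; pale, not called). Saa3 at 5.91 and Saa4 at 1.13 stand next to Saa1 at -1.08 and Saa2 at -0.97, and the neighbours Saal1 and Hps5 lie at 0.27 and 0.04.

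Over the 4 libraries, the genes most like each member were found among 9029 genes by the Euclidean distance between log2(FPKM + 1) values centred on the gene's mean. For Saa1 the 5 nearest were Irs2, an insulin receptor substrate, Fam83c, Pisd-ps3, Tagln, a smooth muscle actin-binding protein, and Sh3d21, at distances of 0.032 to 0.079. Saa2 lay at 0.79 from Saa1, farther than any of these. For Saa2 the 5 nearest were Mir8103, with at most 3 counts, 9130209A04Rik, Gm5617, Cdc14a, a phosphatase, and Glt1d1, at 0.15 to 0.28. For Saa3 they were Pla2g2a, a secreted antibacterial phospholipase, Apol10a, Slpi, a secreted protease inhibitor, Cdkn2a, a cell cycle inhibitor and Polycomb target, and Iigp1, an interferon-inducible GTPase, at 0.40 to 0.54. Pla2g2a measured 37.2 and 31.0 FPKM in KO, against 1.29 and 0.24 FPKM in WT. Likeness over 4 libraries that fall into a pair of groups reflects little more than the size of the difference and the order of the replicates. Saa1 was higher in replicate 2 of both groups and Saa2 in replicate 1, at similar log2 fold changes of -1.08 and -0.97.

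Markers of other cells moved with the same groups. Of the 11 fibroblast and smooth muscle markers 10 fell and 0 rose, beside 20.8% and 23.0% of all tested genes. The 11 summed to 1052 and 1349 FPKM in KO, against 2340 and 2520 FPKM in WT. Tagln and Acta2 fell by 1.02 each on the log2 scale. The ratio of Saa1 to that sum was 0.824 and 0.885 in KO and 0.925 and 1.001 in WT. For Saa2 it was 0.10 and 0.073 in KO and 0.114 and 0.064 in WT, and the groups overlapped. Against the summed colon epithelial markers, the Saa1 ratio was 0.065 and 0.086 in KO and 0.173 and 0.196 in WT. The part of a changed share of non-epithelial cells in the Saa1 and Saa2 values was not tested.

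Of the 12 macrophage markers 7 rose and 0 fell, beside 23.0% and 20.8% of all tested genes. The 12 summed to 470 and 514 FPKM in KO, against 336 and 360 FPKM in WT. Lyz2 and C1qa, the most abundant of them, had log2 fold changes of 0.44 and 0.72, and Lyz2 was not called without WT replicate 1 (adjusted p = 0.0688). The Saa3 ratio to that sum was 0.105 and 0.082 in KO and 0.0036 and 0.0011 in WT. Neutrophil markers without Ly6g, which the replicate 2 files alone list, summed to 176 and 153 FPKM in KO and 7.3 and 11.0 FPKM in WT. Of 6 tested, Ly6g included, 4 rose and 0 fell, beside 23.0% and 20.8% of all tested genes. S100a8 rose by 5.51 on the log2 scale. S100a8, S100a9 and Ltf passed the count filter only through their KO counts and could hardly be called lower. S100a8 and S100a9, which make up most of that sum in KO, are also on the list of epithelial genes that respond to interleukin-22 and STAT3. Mpo, Elane, Mmp8 and Ngp, markers of neutrophil granules, were listed in no library. The 9 adipocyte markers summed to 51.2 and 56.8 FPKM in KO and 36.8 and 44.5 FPKM in WT. Pparg, the most abundant of them, measured 24.8 and 25.4 FPKM in KO and 14.6 and 16.2 FPKM in WT, with listed transcripts that differ between files. Cfd, the next, measured 8.59 and 10.54 FPKM in KO and 11.19 and 12.65 FPKM in WT. The adipokines Adipoq and Lep were at most 3.29 and 0.12 FPKM in any library. Of 7 adipocyte markers tested, 2 rose (Pparg and Cidec) and 1 fell (Plin4), beside 23.0% and 20.8% of all tested genes. The part of these cells in the Saa3 values was not tested. Hepatocyte markers gave 17.2 and 14.0 FPKM in KO and 45.7 and 42.0 FPKM in WT, and albumin (Alb) was at most 0.39 FPKM in any library. Of 3 hepatocyte markers tested, 1 rose and 1 fell, beside the same 23.0% and 20.8%. The one that fell was Ttr, which is also on the retinol list, at 12.7 and 9.6 FPKM in KO and 42.2 and 38.1 FPKM in WT. The one that rose was Cyp2e1, a cytochrome P450, at 3.15 and 2.95 FPKM in KO and 0.88 and 1.7 FPKM in WT. Cyp2e1 passed the count filter only through its KO counts and could hardly be called lower. Its log2 fold change was 1.29 ± 0.39, or 0.89 without WT replicate 1. With DESeq2 it was not called (adjusted p = 0.102).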

How the data were processed

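RNA-seq libraries of primary colon epithelial cells (2 KO, 2 WT, all after DSS) were analysed from the deposited tables. Per the labels' protocols, Trizol was used for extraction and an Illumina TruSeq RNA kit for libraries from total RNA. Per the file headers, the authors deposited for each gene a length, an expected count (an estimated count that need not be whole) and an FPKM value, the count scaled to length and library total. The deposited lengths were not used in any test. Bowtie2, BWA and the human build hg19 are named, per the submitters' processing notes, without a role, so no coordinates of the authors are used, and no source names the counting tool. Fractional counts mean that reads of similar genes may have been divided between them.

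Gene identifiers were matched to RefSeq symbols (GRCm38.p6; 18820 of 18872). Unlisted genes were taken as 0. The replicate 1 and replicate 2 files list other transcripts for Nos2, Osmr, Hnf4a, Apoe and Apoc2, and the same ones for the serum amyloid A genes. Rounded expected counts went into edgeR 4.0.16 (R 4.3.3; filterByExpr, TMM normalization, glmQLFit, glmQLFTest, no block, two-sided, Benjamini-Hochberg over 13608 genes). A gene that passed the count filter through the counts of a single group could hardly be called lower in that group. SE is the absolute log2 fold change over the square root of F. The fit was tested on simulated data. Chi-square per degree of freedom between libraries was 2.95 in KO and 2.18 in WT, so no library was merged. Alternatives were DESeq2 1.42.0, limma 3.58.1 on log2(FPKM + 1) and log2(FPKM + 0.01), other scalings and filters, a replicate block and each library left out. The members, lists and tests were chosen with earlier results of these data known. Named genes are the members, up to 4 called genes by p and the 2 most abundant of each related list, the 2 most abundant of each cell type list, the listed neighbours and the 5 genes nearest to each of Saa1, Saa2 and Saa3. A gene that the rule names is not reported here. Other named genes were chosen after their values were seen. Among them were Il22ra1, Il10rb, Il1r1, S100a9, Cebpb, Cebpa, Relb, Sp1, Rara, Rxra, Stat3, Lrp1 and Lcn2. Rbp7, Aldh1a2, Lrat, Cyp26b1, Adipoq, Cidec and Plin4 were too, as were the genes listed as too low to test. Promoters are RefSeq sequences (Biopython 1.88 for alignments).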

Additional observations from a re-analysis of the deposited data

How the results depend on the processing

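Every serum amyloid A gene kept its direction under all 13 alternatives that gave it a value. For Saa4, a mean FPKM of at least 5 left no value. Limma on log2(FPKM + 1), which shrinks low genes by construction, gave 4.74 for Saa3 and 0.57 for Saa4. With each library left out in turn, log2 fold changes ranged from -1.33 to -0.88 for Saa1, -1.29 to -0.58 for Saa2, 5.32 to 6.84 for Saa3, 0.74 to 1.64 for Saa4 and -1.29 to -0.89 for the summed Saa1 and Saa2. Called genes numbered 5950, and 4379 with DESeq2. The labels do not tie equal replicate numbers to shared mice, and with the replicate block 7403 genes were called. Differences between replicates 1 and 2 correlated between genotypes across genes (r = 0.49 over 8510 genes with the same transcripts, genes not being independent replicates). Of the related list genes, 68 were called, and 54 to 77 under the alternatives.

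Uncalled neighbours changed sign. Hps5 gave -0.064 with library totals alone, -0.035 with a mean FPKM of at least 5, and -0.065 and -0.069 with limma at pseudocounts of 1 and 0.01. With a library left out it ranged from -0.055 to 0.12, Tsg101 from -0.13 to 0.096, and Ldhc and Ly6g, each listed by the files of 1 replicate number, from -6.27 to 6.49 and from -12.1 to 11.98. The causes were not tested. WT counts of 1 to 3 limit the Saa3 fold.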
